A study of Mus musculus with 10 samples.

Results

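The leader of an mRNA, its 5'UTR, is normally scanned by the small ribosomal subunit, and most ribosomes that have been loaded on the mRNA are found on the coding sequence (CDS). Some leaders hold upstream open reading frames (uORFs), short reading frames that begin at their own start codon and can be translated before the main one. A leader with uORFs can carry many ribosomes while little protein is made from the CDS, and the mRNAs of stress transcription factors such as Atf4 and of polyamine regulators such as Azin1 are textbook cases. Here the leaders with at least as many ribosome footprints as their own CDS were described in cultured neural cells.

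Primary cultures were made from the cortex of FVB mice at postnatal day 0 and hold neurons together with glia. Of 5 cultures, 3 were untreated (numbers 1 to 3) and 2 were depolarized with 55 mM KCl for 3 h (numbers 4 and 5). No genetic change or other treatment separated the groups. Each culture gave an RNAseq library and a ribosome footprinting (RF) library, the latter made from the mRNA fragments that ribosomes protect from nuclease, after cycloheximide had been added to all cultures. Reads were counted by the authors on the 5'UTR, the CDS and the 3'UTR of each Ensembl transcript. Members were chosen by these measured counts: a transcript was taken when its 5'UTR held at least 100 footprints summed over the 3 untreated RF libraries and at least as many as its CDS did in the same sum. Of 22534 transcripts listed, 2476 had at least 100 such footprints, and 354 of these met the rule. Of the 354, 352 matched 236 named genes, and the other 2122 transcripts with at least 100 5'UTR footprints had fewer there than on the CDS and served as the comparison. Isoforms of 1 gene share exons and therefore reads, since reads that mapped to several transcripts were kept: 75 of the 236 genes were present with several transcripts, and the most were 7, for Chtop and for Morf4l2. Transcripts are for this reason not independent, and single genes are given below by the member transcript with the most untreated 5'UTR footprints.

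RF libraries held between 1463654 and 7719915 reads and RNAseq libraries between 3056286 and 3629959. The 5'UTR took 6.04% to 8.56% of RF reads, with the highest share in untreated culture 3, the shallowest library. In RNAseq of untreated cultures, astrocyte markers ran from Aldh1l1 at 172 to Gfap at 4839 reads per 1000000 library reads (CPM), with Aqp4 at 1433. The 5 neuronal markers listed ran from Rbfox3 at 9.82 to Stmn2 at 166 CPM, with Tubb3 at 159. Microglial, oligodendrocyte and endothelial markers were at up to 35, 599 and 16.7 CPM. Of 8 activity genes looked up, 4 were listed. In KCl Nr4a2 went from 4.82 to 183, Fos from 28.7 to 89.6 and Junb from 40.8 to 86.1 CPM. Arc went from 4.66 to 9.31 CPM, which did not pass the test (adjusted p = 0.0524 by edgeR). Fewer cells of a type and less RNA per cell cannot be told apart in such libraries.

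The counts that chose the leaders are a description and not a finding. The most 5'UTR footprints were on Tuba1a (alpha-tubulin), with 10293 in the 3 untreated libraries and 0 on its CDS. Scd2, a fatty acid desaturase, followed with 8584 on the 5'UTR and 3943 on the CDS. The next were Tubb5 (beta-tubulin), Chst2 (a carbohydrate sulfotransferase, 2622 against 1627), Eef1a1 (a translation elongation factor, 2282 against 0) and Azin1 (antizyme inhibitor, 1711 against 857). Rhoa, Ubb, H3f3a, Morf4l2, Pkm, Gpbp1, Fam167a, Ckb and Chtop completed the 15 with the most. The median over all 354 was 212. At the edges of the rule, Tceal3, Zfp422 and Chchd7 were just inside with 100 5'UTR footprints, and Zfp251 with 99 and Itpripl2 and Mef2b with 98 were just outside. Papola (227 against 227), Mapk7 (150 against 148) and Cdc42 (827 against 815) had just enough relative to the CDS, while Lhfp (581 against 583), B3gnt5 (196 against 197) and Tex9 (127 against 128) had just too few.

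**Figure D1:**
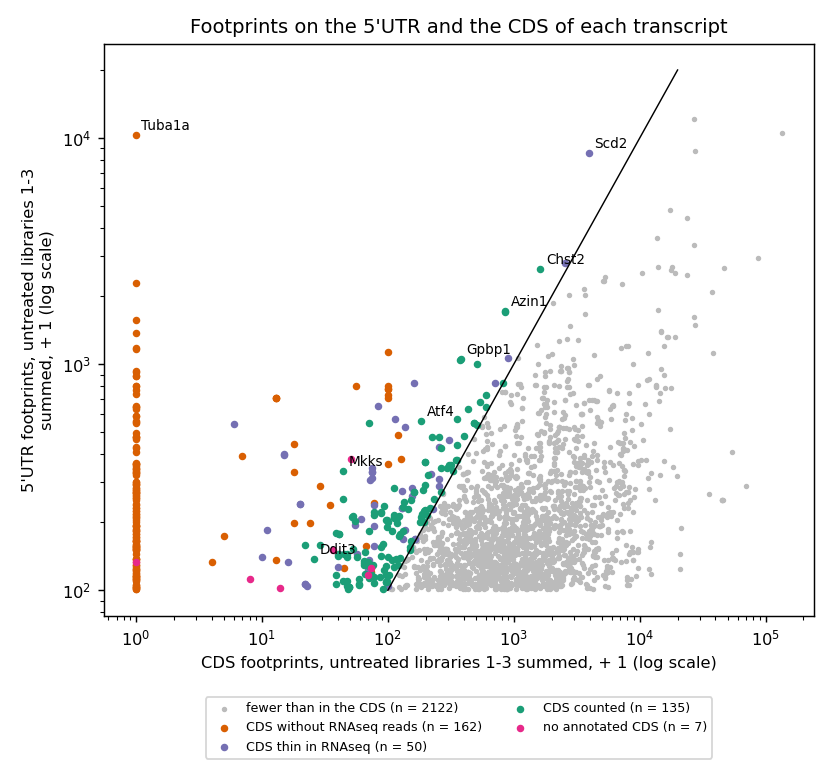
Footprints on the 5'UTR (vertical, log scale) against footprints on the CDS (horizontal, log scale) of each transcript with at least 100 of the former, summed over the 3 untreated RF libraries with 1 added, and coloured by how the RNAseq libraries cover the CDS. The 354 members lie on or left of the line of equal counts, and a column of them at the left edge, headed by Tuba1a with 10293 5'UTR footprints, has 0 CDS footprints.

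For many of these leaders, few or no reads of any kind were listed on the CDS. The RNAseq libraries, which the rule did not use, were read for this. Of the 354 transcripts, 164 had no RNAseq read on the CDS in any of the 5 libraries. Of these, 134 had neither an RNAseq read nor a footprint there. Among the 2122 comparison transcripts 0 lacked RNAseq reads on the CDS. Comparison transcripts have over 100 CDS footprints each by definition, so a CDS left out of the counting could not enter that set. The authors aligned reads to a transcriptome from which degenerate sequence had been removed. The CDS of the members without RNAseq reads on it was mostly shared with other genes. In 150 of the 162 that have an annotated CDS and no RNAseq read on it, over 20% of the 30-nt words of the CDS also occur in transcripts of another gene, with a median of 64.3%. Among comparison transcripts this held for 137 of 2087. This measure does not tell copies or pseudogenes elsewhere from other gene models at the same locus, and the sharing genes were not looked up. The genes concerned include Tuba1a (95.9% of CDS words shared), H3f3a (a replication-independent histone, 99.5%), Ap2m1 (an endocytic adaptor subunit, 97.3%) and Eef1a1 (88.5%). Ubb (polyubiquitin, 85.8%), Prdx1 (a peroxiredoxin, 69.7%), Rhoa (67.3%) and Ckb (creatine kinase, 48.7%) are others. With Chtop and Gnas, all these are also the 10 genes with the most 5'UTR footprints among those with 0 on the CDS. Their ratio to the CDS has no value. Gnas is an exception, with 0.0865% of its CDS words shared with another gene, and so are Uqcrq, Uqcrh, Ndufa4, Snrpb, Cox7a2, Ensa and Dctn5, which were at 20% or less. For such transcripts the counts do not measure how ribosomes divide between leader and CDS.

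**Figure D2:**
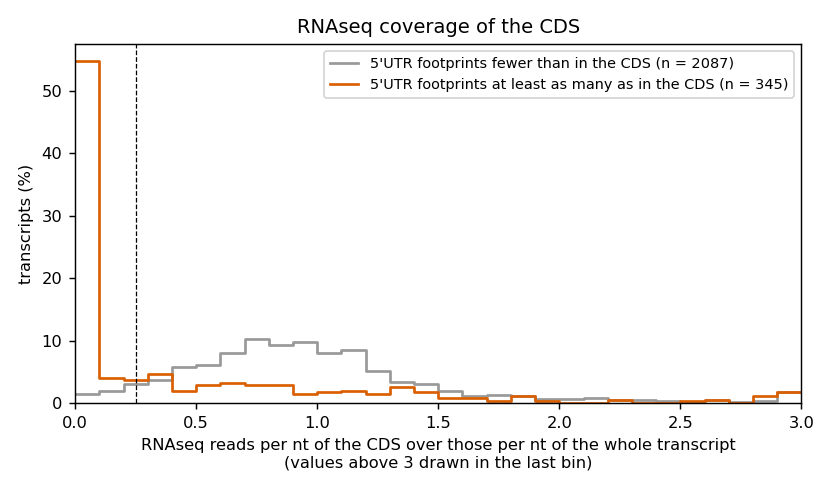
Share of transcripts (vertical, percent) by RNAseq reads per nt of the CDS relative to those per nt of the whole transcript (horizontal), for 345 members and 2087 comparison transcripts with a value. Members pile up at 0, whereas comparison transcripts, which have CDS footprints by definition, spread around a median of 0.904. The dashed line marks 0.25.

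The remaining transcripts were divided by the same measure, a division made after the values were seen. In 50 transcripts of 35 genes the CDS had RNAseq reads at under 0.25 of the density of the whole transcript, among them Scd2, Tubb5, Pkm, Cfl1, Tardbp, Sox1, Sox21, Atf5 and Slc35a4. A further 7 had no CDS in the annotation used here. The CDS was counted, at 0.25 or more of the transcript's density, in 135 transcripts of 98 genes, or 38.1% of the 354, and the median there was 0.864. The limit of 0.25 itself bears on that median. The number depends on where the line is drawn, and was 106 at 0.5 and 156 at 0.1. Chst2, Azin1, Gpbp1, Fam167a, Atf4, BC005537, Slc6a8, St3gal2, Tsc22d4, Mkks, Bcl2, Homer1, Smad6, Smad7, Ddit3 and Zkscan5 belonged to these. For 34 of the 135 (26 genes) part of the 5'UTR is annotated as CDS of another isoform or gene, and footprints on the leader cannot be told apart there from those on that CDS. Ddit3 is one of them (56.5% of its 5'UTR), since its uORF is annotated as the CDS of another gene model, and Mkks (34.0%) and U2af1l4 (95.6%) are others. The share of transcripts with such an overlap was 25.2% here and 14.1% in the comparison. Of the 5'UTR words, 96.3% in Mkks and 48.4% in Ddit3 also occur in transcripts of another gene. Gene models at the same locus count as another gene here, so this is not separate from the overlap with annotated CDS.

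The balance was also read in the KCl libraries, which had no part in the choice. The 5'UTR held at least as many footprints as the CDS in KCl culture 4 for 331 and in KCl culture 5 for 340 of the 354 transcripts, and in both for 325 (91.8%). Among the 325 were all 162 with an annotated CDS and no RNAseq read on it. In 134 of these the CDS had no read of either assay, which set the outcome in advance. For the 135 with a counted CDS the 5'UTR held at least as many in both KCl cultures for 111 (82.2%). For comparison transcripts it did so in 79 of 2122 (3.72%). In single untreated libraries the rule held for 345, 328 and 347 of the 354.

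Leaders of the 135 transcripts were long and rich in upstream ATGs. Their median length was 529 nt (quartiles 308 and 936) against 311 nt (203 and 485) in the comparison, while their CDS was shorter, at 711 against 1287 nt. The rule compares reads and not reads per nt, and so itself favours long leaders and short CDS. Of the 135, 116 (85.9%) had an ATG in the 5'UTR, against 68.5% of the comparison and 54.5% of all listed transcripts. The median was 4 such ATGs against 1. A contained uORF of at least 10 codons was found in 74.1% against 49.3%, and a uORF that runs past the main start codon in 40.7% against 18.5%. Per 100 nt the medians were 0.8 and 0.42 ATGs. No test was made, as transcripts of 1 gene repeat each other. The main start codon had a purine at -3 and G at +4, the strong context, in 26.7% against 38.4%. GC content was 59.2% against 62.7%. A median of 2.64 times as many footprints per nt lay on the leader as on the CDS in the 135 transcripts, against 0.686 in the comparison. These are the untreated counts that chose the members, so the rule itself favours a high value. In the comparison, 601 of 2081 transcripts had more per nt on the leader. Of the 135, 113 did. Homer1 (0.634 times) and Bcl2 (0.964 times) were among the exceptions. In the 162 transcripts whose CDS had no RNAseq reads the leader was short (218 nt), and 48.8% had an ATG in it.

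**Figure D3:**
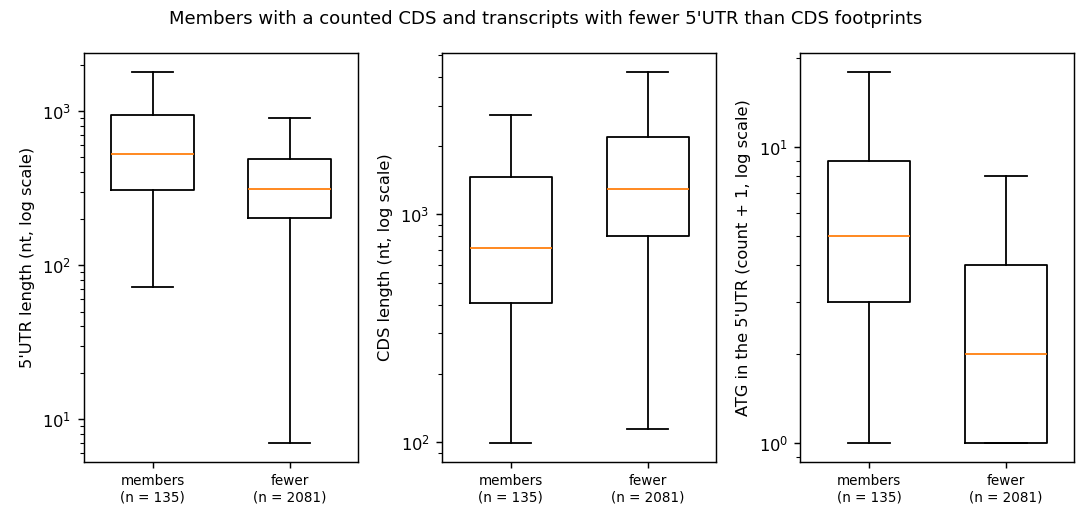
Box plots (median, quartiles, whiskers to 1.5 interquartile ranges, points beyond not drawn, log scales) of 5'UTR length, CDS length and number of 5'UTR ATGs plus 1 for the 135 members with a counted CDS and 2081 comparison transcripts. Members have longer leaders (median 529 nt), shorter CDS (711 nt) and more ATGs (median 4).

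The start codons below show what lies in the leaders that the results turn on. They were read from GENCODE M21 transcripts (GRCm38) with up to 10 bases before and 12 after the ATG, which is in capitals. Positions count from the first base of the transcript. In 92 genes whose leading member transcript has a counted CDS, there were 491 upstream ATGs, of which 422 open a uORF that ends inside the leader, 59 one that overlaps the CDS and 10 are in frame with the CDS. The strong context was found at 96 of them, and 12 genes had none. A match is a description of the sequence and does not show that a ribosome starts there.

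Atf4 has the arrangement known from work on the integrated stress response, a short uORF followed by one that covers the main start. Of its 3 upstream ATGs these are the last 2, and they lie on the plus strand at chr15:80255582-80255584, with 3 codons before the stop, and chr15:80255681-80255683, with 59 codons that reach 83 nt into the CDS, both in the strong context. The main start is at chr15:80256299-80256301.
Atf4 upstream ATG at position 399: tgcggccaccATGgcgtattagagg
Atf4 upstream ATG at position 498: ggcctaagccATGgcgctcttcacg
Atf4 main start at position 595: gccccacaacATGaccgagatgagc

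Ddit3 (CHOP, a stress transcription factor) holds a pair of in-phase upstream ATGs 34 and 31 codons before the same stop, at chr10:127290829-127290831 and chr10:127290838-127290840 (plus strand), in its first exon. Neither is in the strong context, and the main start, in exon 3, is.
Ddit3 upstream ATG at position 56: cgattatatcATGttgaagatgagc
Ddit3 upstream ATG at position 65: catgttgaagATGagcgggtggcag
Ddit3 main start at position 187: acgtgcagtcATGgcagctgagtcc

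Chst2 has 1 upstream ATG, in the strong context, at chr9:95406450-95406452 (minus strand). Its 53 codons end in a stop codon that shares 1 nt with the main start at chr9:95406289-95406291, which is not in the strong context.
Chst2 upstream ATG at position 168: agccgctgccATGggagagccagcc
Chst2 main start at position 329: tgtgcctgtgATGagccgcagctcg

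Azin1 has 6 upstream ATGs, none in the strong context, and the longest contained uORF, of 44 codons, opens at an ATG that is split between exons 2 and 3. Its leader is also known for a conserved upstream reading frame that begins at a codon other than ATG and responds to polyamines, which a search for ATG does not find. Zkscan5, a zinc finger gene, has 14 upstream ATGs, the first at chr5:145204803-145204805 (plus strand) with the longest contained uORF, of 45 codons.
Azin1 upstream ATG at position 491: taacttgtccATGgaggtcttcact
Azin1 main start at position 748: tacggctgagATGaaaggatttatt
Zkscan5 upstream ATG at position 242: catagaactaATGaagtctttcgtt
Zkscan5 main start at position 734: ttcagttggaATGataatgacagaa

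The response to KCl was tested across all transcripts with the quasi-likelihood test of edgeR, and a change was called at an adjusted p under 0.05. Levels are given as CPM after TMM scaling of library sizes, with CDS reads as the library size for footprints on either region. Because the untreated RF libraries both chose the members and enter each RF contrast, counts of calls on footprints describe the members and are not read against the other transcripts. RNAseq counts were not used by the rule.

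At the level of RNA, 101 of 325 members tested (31.1%) were higher and 23 (7.08%) lower in KCl. Over all 16844 transcripts tested 13.3% were higher and 11.5% lower. Over the 2117 comparison transcripts tested, which share the minimum of 100 5'UTR footprints, 19.8% were higher and 11.2% lower. Over all transcripts, rises made up 53.6% of calls. With library totals in place of TMM they made up 35.8%, and 78 members were higher and 35 lower. Most of the rises were among transcripts whose CDS had no RNAseq reads, with 57 of 140 higher and 7 lower, and their RNAseq value rests on the rest of the transcript. Of the 129 with a counted CDS, 24 (18.6%) were higher and 15 (11.6%) lower, with a median log2 change of 0.0, and so were near the comparison. Among the largest rises were those of Zkscan5 (log2 2.28 ± 0.19, SE), Atf4 (2.26 ± 0.13), Smad7 (an inhibitor of TGF-beta signalling, 1.69), Tsc22d4 (1.43) and the postsynaptic scaffold Homer1 (1.38). The largest falls were of Klhdc8a (-2.54), Smad6 (a relative of Smad7, -1.25), Ptges3 (a co-chaperone, -1.16), Fance (a DNA repair gene, -1.13), Pigyl (-1.07) and Insyn1 (a protein of inhibitory synapses, -1.03). The calls of Smad6 and Fance were lost without KCl culture 4 (adjusted p = 0.0749 and 0.0525 by edgeR), and that of Insyn1 without KCl culture 5 (0.0999).

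Footprints on the leaders changed in few members. All 354 were tested, and 13 transcripts of 10 genes were higher and 2 of 1 gene were lower, where over the 5673 5'UTRs tested 4.39% were higher and 0.529% lower. Of the 14 called transcripts tested in RNAseq, 9 were also higher there. The median log2 change was 0.17 for members and 0.21 for all 5'UTRs, and when libraries were scaled on 5'UTR reads themselves the medians were -0.08 and -0.02. That scaling called 19 members higher and 26 lower, and rises fell from 89.2% to 64.5% of all calls (77.1% with library totals), while all 15 calls had the same sign under it.

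Atf4 had the largest rise. Its 5'UTR carried 38.6, 35.9 and 28.0 CPM of footprints without KCl and 177 and 170 with it. Its CDS carried 13.3, 11.1 and 9.33, then 70.9 and 65.5. RNAseq was at 158, 142 and 166, then 705 and 784 CPM. Every KCl value was far above every untreated value on all 3 measures, and the changes were alike in size, with log2 2.32 ± 0.28 (adjusted p = 4.63e-05) on the 5'UTR, 2.51 ± 0.18 (5.81e-17) on the CDS and 2.26 ± 0.13 (2.56e-24) in RNAseq, by edgeR. The 5'UTR took 75.3% ± 1.05 (SD, n = 3) of the footprints on both regions without KCl and 71.8% ± 0.53 (SD, n = 2) with it, a shift that did not pass the test (log2 -0.26 ± 0.38, adjusted p = 0.868). As 1 of its uORFs reaches 83 nt into the CDS, footprints on that uORF can be among those counted on the CDS. Atf4 rose in RNA and in footprints on both regions, and its calls were kept in each of the alternatives run.

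Homer1 rose on the leader. Its 5'UTR had 15.2, 8.89 and 19.4 CPM of footprints in untreated and 49.2 and 53.2 in KCl cultures (log2 1.89 ± 0.34, adjusted p = 0.00222 by edgeR). On the CDS, which in this isoform is short at 582 nt, it had 7.86, 7.8 and 6.46, then 13.7 and 12 (log2 0.73 ± 0.30, adjusted p = 0.0544). The groups did not overlap on either region, and the difference between the regions did not pass the test (1.23 ± 0.44, adjusted p = 0.22). Without KCl culture 5 the call on the leader was lost (adjusted p = 0.112).

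Smad7 rose together on the leader (log2 1.65), on the CDS (1.53) and in RNAseq (1.69). Among the others that rose on the leader were Sox21 (a neural progenitor transcription factor, 1.53), Ube2h (a ubiquitin-conjugating enzyme, 1.98) and Ppp2r5a (a phosphatase subunit, 1.32), whose CDS is thin or empty in RNAseq. Ube2h had 14.9, 11.1 and 24.4 CPM of footprints on the 5'UTR in untreated and 61.5 and 63.7 in KCl cultures, with 0.602 to 2.93 CPM over the 5 RNAseq libraries. It had too few RNAseq reads to be tested there. The fall was of Rfesd, with 10.1, 12.2 and 16.5, then 3.62 and 3.37 (log2 -1.83 ± 0.47, adjusted p = 0.0256 by edgeR), and its CDS had 12, 22 and 6 footprints in untreated and none in the KCl libraries. The calls of Smad7, Sox21, Ppp2r5a and Rfesd were lost without KCl culture 4 and without KCl culture 5, that of Ube2h without KCl culture 5 and that of Ppp2r5a also without untreated culture 2 and with library totals, with adjusted p between 0.051 and 0.423. DESeq2 did not call Rfesd (adjusted p = 0.0528) or Ppp2r5a (0.0532).

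On the CDS, 183 members had enough footprints for the test, and 22 transcripts of 18 genes were higher and 19 of 15 genes lower, where over all 16587 tested 17.0% were higher and 15.0% lower. Rises made up 53.0% of all calls, and with library totals 1703 of all transcripts were higher and 3979 lower, with 16 and 28 members among them. Those that rose most were Zkscan5 (2.74), Ddit3 (2.63), Atf4 (2.51), Azin1 (1.62), the splicing protein gene Snrpb (1.56) and Smad7 (1.53). The CDS of Snrpb had no RNAseq reads, and the limit given above for such transcripts holds for it. Those that fell most were Adgra1 (an adhesion receptor, -2.18), Smad6 (-2.14), Ptp4a3 (a phosphatase, -2.10), Chst2 (-1.80), Rnps1 (-1.59) and the survival factor Bcl2 (-1.57). Gpbp1 rose by 1.21 and Fam167a fell by 1.02 on the log2 scale. Some calls were lost without single libraries. Adgra1, Smad6, Ptp4a3, Rnps1 and Snrpb lost theirs without KCl culture 5 (adjusted p 0.0639 to 0.256), and Ptp4a3, Rnps1 and Bcl2 without KCl culture 4 (0.082 to 0.222). DESeq2 did not call Adgra1, Ptp4a3, Rnps1 or Bcl2 (0.0608 to 0.208).

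**Figure D4:**
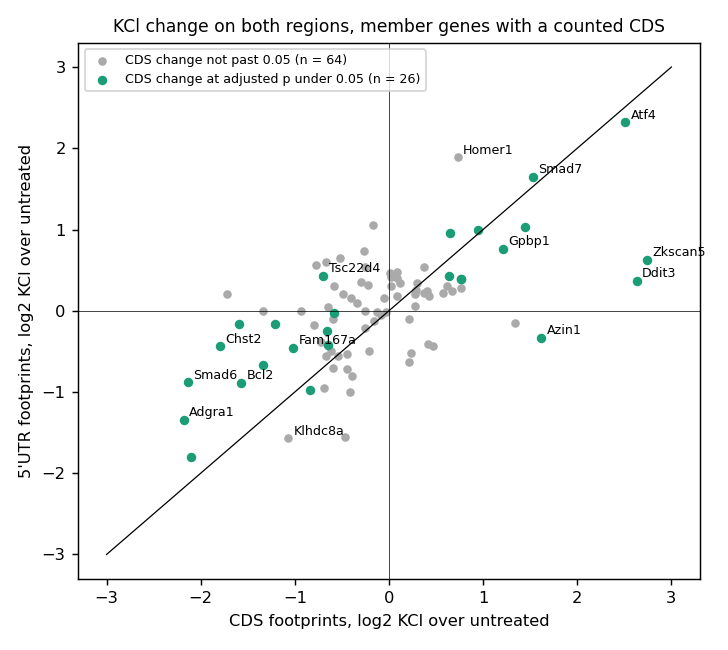
Log2 change in KCl of 5'UTR footprints (vertical) against that of CDS footprints (horizontal) for 90 member genes with a counted CDS, with green points for the 26 called on the CDS and a line of equal change. Atf4 and Smad7 lie near the line, whereas Azin1, Zkscan5 and Ddit3 lie far to the right of it, with CDS changes of 1.62, 2.74 and 2.63, and Chst2 to the left at -1.80.

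The balance between leader and CDS was then compared directly, as the difference of both changes within RF libraries. Of 183 members tested, 4 transcripts of 2 genes shifted from the 5'UTR to the CDS and 0 the other way, where over all 5334 tested 0.075% shifted to the CDS and 0.262% to the 5'UTR. At an unadjusted p under 0.05 there were 8 members in each direction, and DESeq2 called 2 and 0. The genes were Azin1 and Zkscan5. The choice of members by a high 5'UTR share in the untreated libraries itself favours shifts to the CDS, and nothing is read from these counts against other transcripts. Scaling each region on its own counts moved the median of all transcripts from 0.16 to -0.10 and gave 33 shifts to the 5'UTR and 22 to the CDS over all transcripts, and the 4 calls had the same sign under it.

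Azin1, which raises polyamine levels by sequestering antizyme, had 109, 112 and 127 CPM of footprints on the 5'UTR in untreated and 88.3 and 95.1 in KCl cultures. On the CDS it had 58.4, 51.3 and 64.6, then 186 and 166. RNAseq was at 158, 140 and 143, then 174 and 138 CPM. The KCl values lay above the untreated ones on the CDS and below them on the 5'UTR, while RNA overlapped, and of the 3 measures the CDS alone passed the test. The 5'UTR took 66.6% ± 1.69 (SD, n = 3) of footprints without KCl and 34.3% ± 3.01 (SD, n = 2) with it, so that Azin1 no longer met the rule in either KCl library. The shift was log2 -1.93 ± 0.36 (adjusted p = 0.0132 by edgeR). The CDS change was 1.62 ± 0.12 (adjusted p = 2.63e-16) and the 5'UTR change -0.33 ± 0.27 (0.535). Translation efficiency (TE), CDS footprints over RNAseq reads, went from 0.397 ± 0.0484 (SD, n = 3) to 1.14 ± 0.0972 (SD, n = 2), a log2 change of 1.54 ± 0.20 (adjusted p = 3.46e-11). The CDS and TE calls were kept in the 9 and 10 alternatives that gave a value for this transcript (none with 1 transcript per gene), while that of the shift was lost without untreated culture 1 (adjusted p = 0.082), KCl culture 4 (0.343) or KCl culture 5 (0.99), with estimates of -1.80 to -2.07.

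Zkscan5 rose in RNA from 15.8, 21.1 and 17.4 to 93.5 and 82.6 CPM. Its CDS footprints rose from 6.13, 8.58 and 7.18 to 37.6 and 57.3 CPM. Those on the 5'UTR were at 6.26, 9.83 and 11.5, then 12.3 and 14.6, with a change that did not pass the test (log2 0.63 ± 0.39, adjusted p = 0.4). The KCl values were thus beyond the untreated ones on all 3 measures but much closer on the leader. The shift was -2.05 ± 0.42 (adjusted p = 0.0231 by edgeR), and TE did not pass the test (0.44 ± 0.32, adjusted p = 0.558), with RNA and CDS footprints rising by similar amounts. DESeq2 did not call the shift (adjusted p = 0.0939), nor was it called without untreated culture 1 or 3 or either KCl culture (0.0523 to 0.99).

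In Ddit3, which had few footprints, the CDS rose. It had 7, 13 and 5 footprints in the untreated libraries and 18 and 24 in the KCl libraries, or 0.933, 2.03 and 3.59, then 13 and 8.99 CPM. The 5'UTR had 58, 63 and 15, then 15 and 34, or 7.73, 9.83 and 10.8, then 10.9 and 12.7 CPM. RNAseq overlapped between the groups, at 13.3 to 20.5 in untreated and 11.7 and 18.7 CPM in KCl cultures. The CDS rose by log2 2.63 ± 0.46 (adjusted p = 6.59e-06) and TE by 2.71 ± 0.53 (6.57e-05), by edgeR, and the shift of -2.21 ± 0.56 did not pass the test (adjusted p = 0.0942). The change on the 5'UTR was 0.37 ± 0.38 (adjusted p = 0.646). Both calls were kept in each of the 7 alternatives that gave a value. With 1 of the KCl cultures left out Ddit3 had too few CDS footprints for the test, and DESeq2 gave no adjusted p for its TE.

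Chst2 went the other way. Its CDS had 120, 90.8 and 106 CPM of footprints in untreated and 31.1 and 29.6 in KCl cultures. The 5'UTR had 194, 113 and 317, then 146 and 158, and so varied widely among untreated cultures and overlapped. RNAseq was at 792, 938 and 823, then 699 and 703 CPM. The CDS fell by 1.80 on the log2 scale (SE 0.16, adjusted p = 1.33e-13) and TE by 1.52 (SE 0.20, adjusted p = 1.55e-10 by edgeR), and both calls were kept in all alternatives. The 5'UTR took 64.1% ± 9.96 (SD, n = 3) and then 83.3% ± 1.24 (SD, n = 2) of footprints, a shift of 1.48 ± 0.40 that did not pass the test (adjusted p = 0.112).

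**Figure D5:**
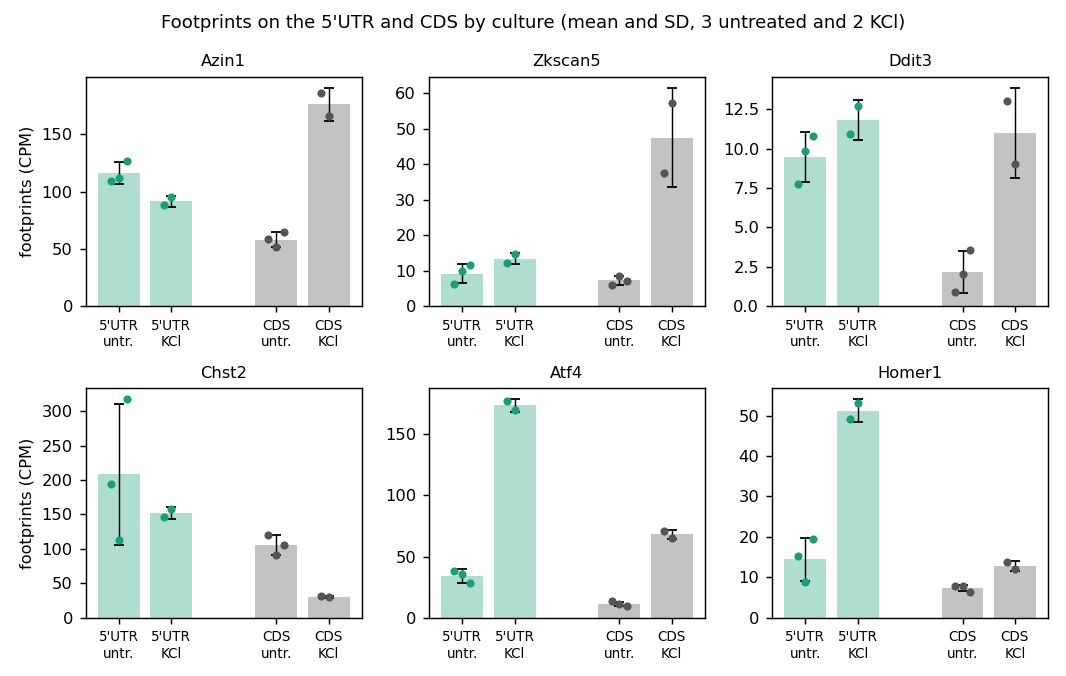
Footprints (CPM) on the 5'UTR (green) and the CDS (grey) of 6 genes by culture, with points for cultures and bars for the mean and SD of 3 untreated and 2 KCl cultures. In Azin1, Zkscan5 and Ddit3 the CDS points rise far above those of untreated cultures while the 5'UTR points stay close, in Chst2 the CDS points fall, and in Atf4 and Homer1 the 5'UTR points rise.

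In TE of the CDS, 3 member transcripts of 2 genes were higher (Azin1 and Ddit3) and 2 lower (Chst2 and Tsc22d4) of 176 tested, where over all 15579 tested 0.892% were higher and 2.11% lower. Tsc22d4, a leucine zipper protein, had 19.2, 16.9 and 29.4, then 12.3 and 12.4 CPM of footprints on the CDS, and 3.79, 6.62 and 7.3, then 18.2 and 13.7 CPM in RNAseq. RNA was higher and CDS footprints lower in both KCl cultures, and TE fell by 2.2 on the log2 scale (SE 0.44, adjusted p = 0.000112 by edgeR). The fall on the CDS itself (-0.70, adjusted p = 0.0365) was lost with DESeq2 and without any 1 of untreated cultures 1 and 3 and KCl cultures 4 and 5 (adjusted p 0.0566 to 0.245). In TE of the 5'UTR, 5'UTR footprints over RNAseq reads, 1 of 325 members was higher and 0 lower, where over the 5557 tested 0.054% were higher. At an unadjusted p under 0.05 there were 6 higher and 15 lower, and DESeq2 called 0. The 1 was Ptges3, with 16.4, 14.2 and 17.9, then 31.1 and 30.7 CPM of footprints on the leader, and 17.8, 26.8 and 30.1, then 10.4 and 11.7 CPM in RNAseq (log2 2.06 ± 0.46, adjusted p = 0.0198 by edgeR). All CDS words of Ptges3 occur in another gene and its CDS has no counts. The call was lost without untreated culture 3 or either KCl culture (adjusted p 0.0639 to 1.0).

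Genes known for uORFs or other translated leaders were looked up from 4 lists, of which that of polyamine genes also holds genes known for a frameshift. Of 42 genes, 35 were listed, 18 had at least 100 untreated 5'UTR footprints and 9 were members. The other 9 with at least 100, such as Myc (186 against 754), Vegfa (290 against 818), Mdm2 (110 against 652) and Eif4g2 (1206 against 8009), had more on the CDS. Among genes whose uORFs serve the integrated stress response, 4 of 8 listed were members. Besides Atf4 and Ddit3 these were Atf5 (528 against 137) and Slc35a4 (400 against 14). The CDS of Atf5 and Slc35a4 is thin in RNAseq, at 0.0804 and 0.147 of the transcript's density, so it may be partly uncounted. Slc35a4 shares 59.7% of its CDS words with other genes, and 43.2% of its 5'UTR is annotated as CDS of another isoform or gene. Atf5, a relative of Atf4, rose in RNAseq (log2 0.54, adjusted p = 0.00354) and on the CDS (0.84, 0.0275) by edgeR, with CDS footprints at 9.86, 6.24 and 16.5, then 13.7 and 18.7 CPM, and 5'UTR footprints at 42.9, 26.5 and 25.8, then 36.2 and 44.2 CPM. The groups overlapped on both regions. Slc35a4, a transporter gene with a coding uORF, was at 0.12 on the 5'UTR (adjusted p = 0.882). Of the polyamine genes, Azin1 and Oaz2, an antizyme, were members. Oaz2 rose in RNAseq (0.77, adjusted p = 3.22e-06 by edgeR) with a 5'UTR value of 0.37 (adjusted p = 0.662). Its leader has 0 upstream ATGs. Its CDS had no RNAseq read and shares 63.6% of its words with other genes, so its counts do not measure the balance. Of genes with a coding upstream frame, Slc35a4, Mkks (335 against 43) and Gnas (739 against 0) were members, and none of the 3 passed the tests on RNAseq or on the 5'UTR. Bcl2 was the 1 member from a list of 19 other genes with uORFs. It fell in RNAseq (-1.0, adjusted p = 0.000158) and on the CDS (-1.57, adjusted p = 0.00765), with 14.6 ± 2.4 (SD, n = 3) and 7.39 ± 2.26 (SD, n = 2) CPM of footprints on the leader (-0.89, adjusted p = 0.213). Over all 42 genes RNAseq rose in 15 and fell in 5 of 32 tested, CDS footprints rose in 15 and fell in 6 of 28, and 5'UTR footprints rose in 1 (Atf4) of 25. Over all transcripts tested 13.3% were higher and 11.5% lower in RNAseq, 17.0% and 15.0% in CDS footprints, and 4.39% and 0.529% in 5'UTR footprints.

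Among genes with a counted CDS, the ratio of leader to CDS footprints was highest in BC005537 (550 against 70), Mkks (335 against 43), Fance (157 against 21) and Ddit3 (136 against 25), a choice made after the values were seen. Of the 5'UTR words of Mkks 96.3% also occur in transcripts of another gene, and of those of Ddit3 48.4%. Another gene here includes a gene model at the same locus, such as that of the Ddit3 uORF. Multiply mapped reads were kept, and whether any came from another locus was not looked up. The leader footprints of Mkks and Ddit3 cannot be assigned to these gene models alone. BC005537, a gene with 19 upstream ATGs, had 32.8, 37.6 and 45.2 CPM of footprints on the leader in untreated and 20.3 and 18 in KCl cultures. Both KCl values lay below the untreated ones, and the change did not pass the test (log2 -1.0, adjusted p = 0.0865 by edgeR).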

How the data were processed

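Read counts per transcript region were used as the authors deposited them, 1 table per library, without normalization. The authors used Trimmomatic 0.32 for adapters and STAR 2.3.1z8 against rRNA, aligned the rest with bowtie2 2.2.2 to an mm10 transcriptome (Ensembl 75) without degenerate sequence, keeping multiply mapped reads, and counted with bedtools 2.20.1 (names and versions from the submitters' processing notes and the study's methods). The study removed a further KCl replicate for low library size. A letter marks the region of each count. The 5'UTR was taken from its order and share of RF reads, and 1 region stays unnamed. An exact 0 can mean that the region's sequence was left out.

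Names, lengths and sequences came from GENCODE M21 (GRCm38, the same build but a later annotation, so region borders can differ), which matched 352 of 354 members. Contrasts were fitted with edgeR 4.0.16 in R 4.3.3 (quasi-likelihood, Benjamini-Hochberg adjustment) over all transcripts with at least 50 reads in the fit. RNAseq used all regions, and RF 5'UTR values were scaled by TMM factors and totals of CDS reads. For TE the KCl effects on RF and RNAseq were compared in 1 model with the culture as block, and for the shift those on the 5'UTR and CDS with the library as block. Same-numbered RNAseq and RF libraries come from 1 lysate, which gives the pairing, although their deviations from group means correlated at -0.0442 to 0.0229. SE is the absolute log2 change over the square root of F, an approximation. With 3 against 2 cultures an exact permutation test cannot go below p = 0.1, and none was used. The scripts were tested on simulated data. Alternatives were DESeq2 1.42.0, other scalings, minima of 10 and 200 reads, 1 transcript per gene and leaving out each culture.

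The members and gene lists were chosen with earlier results of these data known. Genes were named by a rule: the 15 with the most 5'UTR footprints, the 10 highest ratios, and up to 6 changes in each direction per contrast with KCl cultures beyond the untreated. It also took members of 4 lists of uORF or frameshift genes, and 3 genes on each side of each threshold. A result that the rule would name is not reported here. RF libraries held 1463654 to 7719915 reads.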

Additional observations from a re-analysis of the deposited data

How the results depend on the processing

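Leaving out 1 culture moved the counts of members called to 72 to 102 higher and 11 to 30 lower in RNAseq, 1 to 42 and 0 to 11 on the 5'UTR, 11 to 24 and 6 to 18 on the CDS, 0 to 1 shifted to the 5'UTR and 0 to 5 to the CDS, 2 to 5 and 2 to 5 in CDS TE, and 0 to 1 and 0 to 0 in 5'UTR TE. The 5'UTR rises were 42 without untreated culture 3, the shallowest RF library, 4 without KCl culture 4 and 1 without KCl culture 5, and the falls 11 without untreated culture 2 and 0 without either KCl culture. Without KCl culture 5 there were 11 falls in RNAseq, and 11 rises and 6 falls on the CDS, which had 8 falls without untreated culture 1 or KCl culture 4. Shifts to the CDS were 0 without untreated culture 1, KCl culture 4 or KCl culture 5 and 2 without untreated culture 3, which left 1 to the 5'UTR. CDS TE had 5 rises and 4 falls without untreated culture 1 and 5 falls without untreated culture 2. The 5'UTR TE call was lost without untreated culture 3 or either KCl culture. With DESeq2, members called were 0 lower on the 5'UTR, 14 higher and 5 lower on the CDS, 2 shifted to the CDS, 1 lower in CDS TE and 0 higher in 5'UTR TE. With library totals in place of TMM they were 35 lower in RNAseq, 6 higher and 4 lower on the 5'UTR and 4 lower in CDS TE, and the medians of all transcripts moved from -0.01 to -0.15 in RNAseq and from -0.01 to -0.19 on the CDS. Scaling on the region's own counts gave 26 lower on the 5'UTR and 1 shifted to it. A minimum of 10 reads gave 4 lower on the 5'UTR, and 200 reads gave 0 there, 11 lower on the CDS, 2 shifted to the CDS and 1 lower in CDS TE. With 1 transcript per gene there were 59 higher and 14 lower in RNAseq, 1 lower on the 5'UTR, 14 higher and 11 lower on the CDS and 2 shifts to the CDS. Without the culture block that the pairing gives, 3 members were higher and 3 lower in CDS TE and 1 higher in 5'UTR TE. Each member called had the same sign under the other scalings and DESeq2. Of the single genes named, 380 values under alternatives kept their call and 55 lost it, with 0 of the opposite sign. The set of 354 became 193 at 200 reads, 924 by reads per nt, and 199 to 313 without 1 untreated culture, the fewest without culture 1. The cause of these changes was not tested, apart from the fewer features or cultures that a setting itself leaves. On the CDS 171 of the 354 members had too few footprints for the test, of which 146 had a CDS without RNAseq reads and 10 a counted CDS.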
